A study of Mus musculus with 14 samples.

Results

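The genes described here are 44 genes of the integrated stress response, serine synthesis and amino acid supply, named by symbol in a fixed list, out of 50686 genes in the deposited tables. All 44 symbols were found by their Ensembl identifiers. They were 9 regulators of the response, 8 enzymes of serine synthesis and one-carbon metabolism, 5 other enzymes of amino acid metabolism, 8 amino acid transporters, 11 cytosolic tRNA synthetases and 3 other genes known as targets. RNA was sequenced in 14 libraries of HPC-LSK cells, mouse haematopoietic progenitor lines named after the LSK fraction of bone marrow, cells that lack lineage markers and carry Sca-1 and Kit, from C57BL/6N mice per the labels. The groups were 4 libraries of Cdk6 wild-type (WT) untransformed lines, 3 of Cdk6 knockout (KO) untransformed lines, 3 of WT lines transformed with BCR-ABL p210 and 4 of KO lines transformed with BCR-ABL p210. By the growth protocol untransformed cells received IL-6 at 12.5 ng/ml and SCF at 2%, and p210 cells received neither (the descriptions of the p210 libraries carry the letters SCF, whose meaning is not settled), so the oncogene and the medium changed together and cannot be told apart. The labels give no age of the animals, and do not say how the oncogene was introduced, whether a line was 1 clone, or which exons the knockout lacks. Each comparison asked how these genes differed between the genotypes within a state, or between the states within a genotype.

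As background, cells sense missing amino acids, misfolded protein, low heme and viral RNA through kinases that phosphorylate the initiation factor eIF2. General protein synthesis then falls while the mRNA of the transcription factor ATF4 is translated more, so much of the control of ATF4 lies in translation and is not visible in the level of its mRNA. ATF4, often paired with a C/EBP protein, switches on genes for amino acid import, serine and asparagine synthesis, mitochondrial one-carbon enzymes and tRNA charging, and also the feedback regulators Trib3 and Ddit3. In blood progenitors this response is known to set how cells endure nutrient and protein stress, and BCR-ABL is known to raise growth signalling through mTORC1, which also acts on ATF4 and on amino acid transporters.

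Library totals ranged from 20270348 to 50303271 counts. Cdk6, the targeted kinase, was at 970.2 to 1305 CPM (counts scaled to a common library size, which compare libraries within a gene) in WT and 236 to 271 CPM in KO untransformed libraries. In p210 lines it was at 576 to 606 CPM in WT and 326, 578, 245 and 163 CPM in KO libraries. KO p210 replicate 2 thus had a level inside the WT p210 range. Every KO library held Cdk6 reads and the missing exons are not given, so this level does not settle whether the label holds. Results on KO p210 lines are therefore given with and without the library so labelled where the call changes. Kit, a defining marker of the named fraction, was at 247 to 471 CPM in untransformed and 14.9 to 59.1 CPM in p210 libraries, and Ly6a (Sca-1) at 13.6 to 112 and 0.553 to 29.1 CPM. Ptprc, the pan-leukocyte marker CD45, was at 259 to 646 CPM throughout. All 5 progenitor markers listed were above 1 CPM on average over the 14 libraries, but Flt3 was at 0.193 to 0.786 CPM in KO p210 libraries. Markers of neutrophils and monocytes, with 7 of 8 above 1 CPM, were higher in sum in KO libraries. In untransformed lines 2 of the 8 were higher in KO and 0 lower by the test used below. Their summed level was 258 to 8593 CPM in WT and 20263 to 28173 CPM in KO untransformed libraries. In p210 libraries it was 1117 to 5153 CPM in WT and 5892 to 19295 CPM in KO. Mpo, at 11576 to 14597 CPM, and Lyz2, at 7477 to 11700 CPM, made up most of the sum in KO untransformed libraries. In p210 lines the ranges of Elane, Mpo, Itgam, Csf1r, S100a8 and S100a9 overlapped between genotypes. Mast cell and basophil markers summed to 1201 to 4204 CPM (WT) and 2553 to 2841 CPM (KO) in untransformed libraries, and to 3913 to 13117 and 6906 to 10145 CPM in p210 libraries. Group means of Cpa3 and Mcpt8 were higher in p210 than in untransformed lines of both genotypes. Fcer1a went the other way, from 1442 to 831 CPM in WT and from 737 to 315 CPM in KO lines. Ms4a2 had a lower mean with p210 in WT and a higher one in KO lines. Megakaryocyte and erythroid markers summed to 1941 to 5088 CPM in WT and 885 to 1477 CPM in KO untransformed libraries, with 4 of 7 above 1 CPM, and to 1479 to 2512 and 1185 to 1816 CPM in p210 lines. Lymphoid markers stayed at or under 43.1 CPM in sum, with Cd3e at 0 in every library. Dendritic cell markers were at or under 213 CPM, with Siglech at 0, and stromal and endothelial markers were at 188 to 828 CPM, with 2 of 5 above 1 CPM. In bulk RNA, fewer cells of a type and less RNA per cell cannot be told apart, and the part of these other cell types in the results below was not tested.

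By deposited TPM (transcript abundance corrected for gene length, which allows genes to be compared), averaged over the 14 libraries, Atf4 was the most abundant of the 44 genes at 655 TPM. It was followed by Slc3a2, the heavy chain shared by several amino acid exchangers, at 484 TPM, by the asparaginyl-tRNA synthetase gene Nars at 373 TPM, and by Psat1, the second enzyme of serine synthesis, at 327 TPM. The 11 synthetases lay between 48.7 TPM for Yars and the Nars level, so every member of the class was well expressed. Regulators other than Atf4 were lower, from 116 TPM for Ddit4 down to 3.88 TPM for Chac1. In the serine and one-carbon class, Shmt2 (218 TPM) came after Psat1, and Phgdh, the first and committing enzyme of serine synthesis, stood at 69.7 TPM, below Mthfd1l (80.4 TPM) and Shmt1 (77.6 TPM). At the low end were Stc2 (1.23 TPM), Cth (1.12 TPM), Aldh1l2 (0.425 TPM) and Cbs (0.133 TPM). Cbs, the entry enzyme of transsulfuration, had 27 counts in all over the WT and 12 over the KO untransformed libraries, and 16 and 4 over those of p210. It did not pass the filter on low counts, so 43 of the 44 genes were tested.

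The promoters of these genes were searched for TGATGNAA on either strand, the spelling of the C/EBP-ATF response element to which ATF4 dimers are known to bind, and for its core form TGATGCAA, which is one of the spellings of the first. RefSeq promoter windows (GRCm38.p6, 250 bases before to 50 after an annotated start) were at hand for 35 of the 44 genes. TGATGNAA was in a window of 14 of the 35 (40%), against 4.51% of 27025 genes, and TGATGCAA in 10 of the 35 (28.6%), against 1.03%. By class, 5 of 7 synthetases, 4 of 9 regulators, 2 of 4 other enzymes, 2 of 6 transporters, 1 of 2 other targets and 0 of 7 serine and one-carbon genes had a match to TGATGNAA. Many of these genes are on the list because they are known ATF4 targets, so this share is a description of the list. Matches upstream of the annotated RefSeq start are shown for 6 genes that the results below turn on. Slc7a11 and Chac1 rose with p210 in both genotypes, Aars and Gars rose in KO lines, Asns passed in no comparison and Vldlr fell. Atf3, Nupr1, Pck2 and Tars also had a match upstream and are not shown. Like Asns, these genes did not pass the test with p210 in either genotype. Slc1a4, with a core match that spans its start, did not pass there either. The match is in capitals (TTGCATCA and TTTCATCA are the same element read from the other strand), each line reads 5′ to 3′ along the gene's own strand, and letters in lower case are the flanking bases.
Slc7a11: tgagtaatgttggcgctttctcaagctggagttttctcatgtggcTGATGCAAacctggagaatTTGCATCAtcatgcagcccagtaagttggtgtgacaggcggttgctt
Chac1: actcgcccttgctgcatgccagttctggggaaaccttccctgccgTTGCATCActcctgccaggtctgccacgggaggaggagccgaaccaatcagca
Asns: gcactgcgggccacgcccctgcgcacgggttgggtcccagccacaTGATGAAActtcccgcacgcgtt
Aars: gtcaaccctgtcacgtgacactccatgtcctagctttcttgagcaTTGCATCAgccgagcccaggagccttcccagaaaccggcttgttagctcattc
Gars: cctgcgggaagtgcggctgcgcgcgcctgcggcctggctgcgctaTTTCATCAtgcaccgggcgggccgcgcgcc
Vldlr: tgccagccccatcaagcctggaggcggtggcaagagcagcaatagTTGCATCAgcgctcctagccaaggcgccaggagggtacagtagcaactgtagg

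These stretches are chr3:50443614-50443724, minus strand, for Slc7a11, chr2:119351004-119351101, plus strand, for Chac1, chr6:7693210-7693277, minus strand, for Asns, chr8:111033685-111033782, plus strand, for Aars, chr6:55037926-55038000, plus strand, for Gars, and chr19:27216775-27216872, plus strand, for Vldlr. The Slc7a11 stretch held 2 core matches, 66 and 47 bases before the start, facing opposite ways, while the Asns and Gars matches were of the TGATGAAA form, 23 and 30 bases before the start. Trib3 had a TGATGTAA match 14 bases after its start, and the matches of Yars and Iars also lay after the start. All these distances are to the RefSeq start, and the GENCODE gene spans used for counting can begin elsewhere. The Asns, Aars and Vldlr matches lie inside those spans, and the Trib3 match lies upstream of its span. A match is a description of letters and not a measured binding site.

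With p210 transformation, several regulators and transporters rose, among them Trib3, Ddit4 and the cystine carrier gene Slc7a11, while of the 3 serine synthesis genes Psat1 and Phgdh fell in WT lines and none rose. In WT lines 11 of the 43 tested genes were higher and 7 lower in p210 than in untransformed libraries, beside 21.9% of all 14512 genes tested that were higher and 17.6% that were lower. Here and below a gene is called higher or lower where the adjusted p of edgeR's quasi-likelihood test was under 0.05, and a value with ± is a log2 fold change with its SE. In KO lines 18 were higher and 3 lower, beside 19.2% and 18% of all genes. The share of members called higher was thus close to that of all genes in WT lines and above it in KO lines. Their median log2 fold change was 0.02 in WT lines (all genes 0.02) and 0.28 in KO lines (all genes -0.01). Of the members called, 10 rose in both genotypes (Trib3, Ddit4, Chac1, Aldh1l2, Slc7a5, Slc7a11, Slc3a2, Slc1a5, Sars and Stc2), which is 10 of the 11 called higher in WT and of the 18 called higher in KO lines, and 2 fell in both (Slc43a1 and Vldlr). Under library size scaling, which moves the median of all genes by -0.116 in WT and -0.111 in KO lines, 9 members were higher and 12 lower in WT and 13 higher and 3 lower in KO lines. Over all genes that scaling gave 2516 higher and 3471 lower in WT and 2093 and 3466 in KO lines, against 3173 and 2554, and 2790 and 2605. The descriptions name 6 lines by code and letter in both states, and 12 members (27.9% of the 43) were higher in p210 in each of these 6 lines and 8 (18.6%) lower in each, beside 22.9% and 20.6% of all genes tested. These 12 were the 10 above except Slc7a5, together with Cebpg, Ddit3 and Gpt2, and the 8 were Psat1, Psph, Shmt1, Shmt2, Mthfd1l, Slc43a1, Eif4ebp1 and Vldlr.

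**Figure D1:**
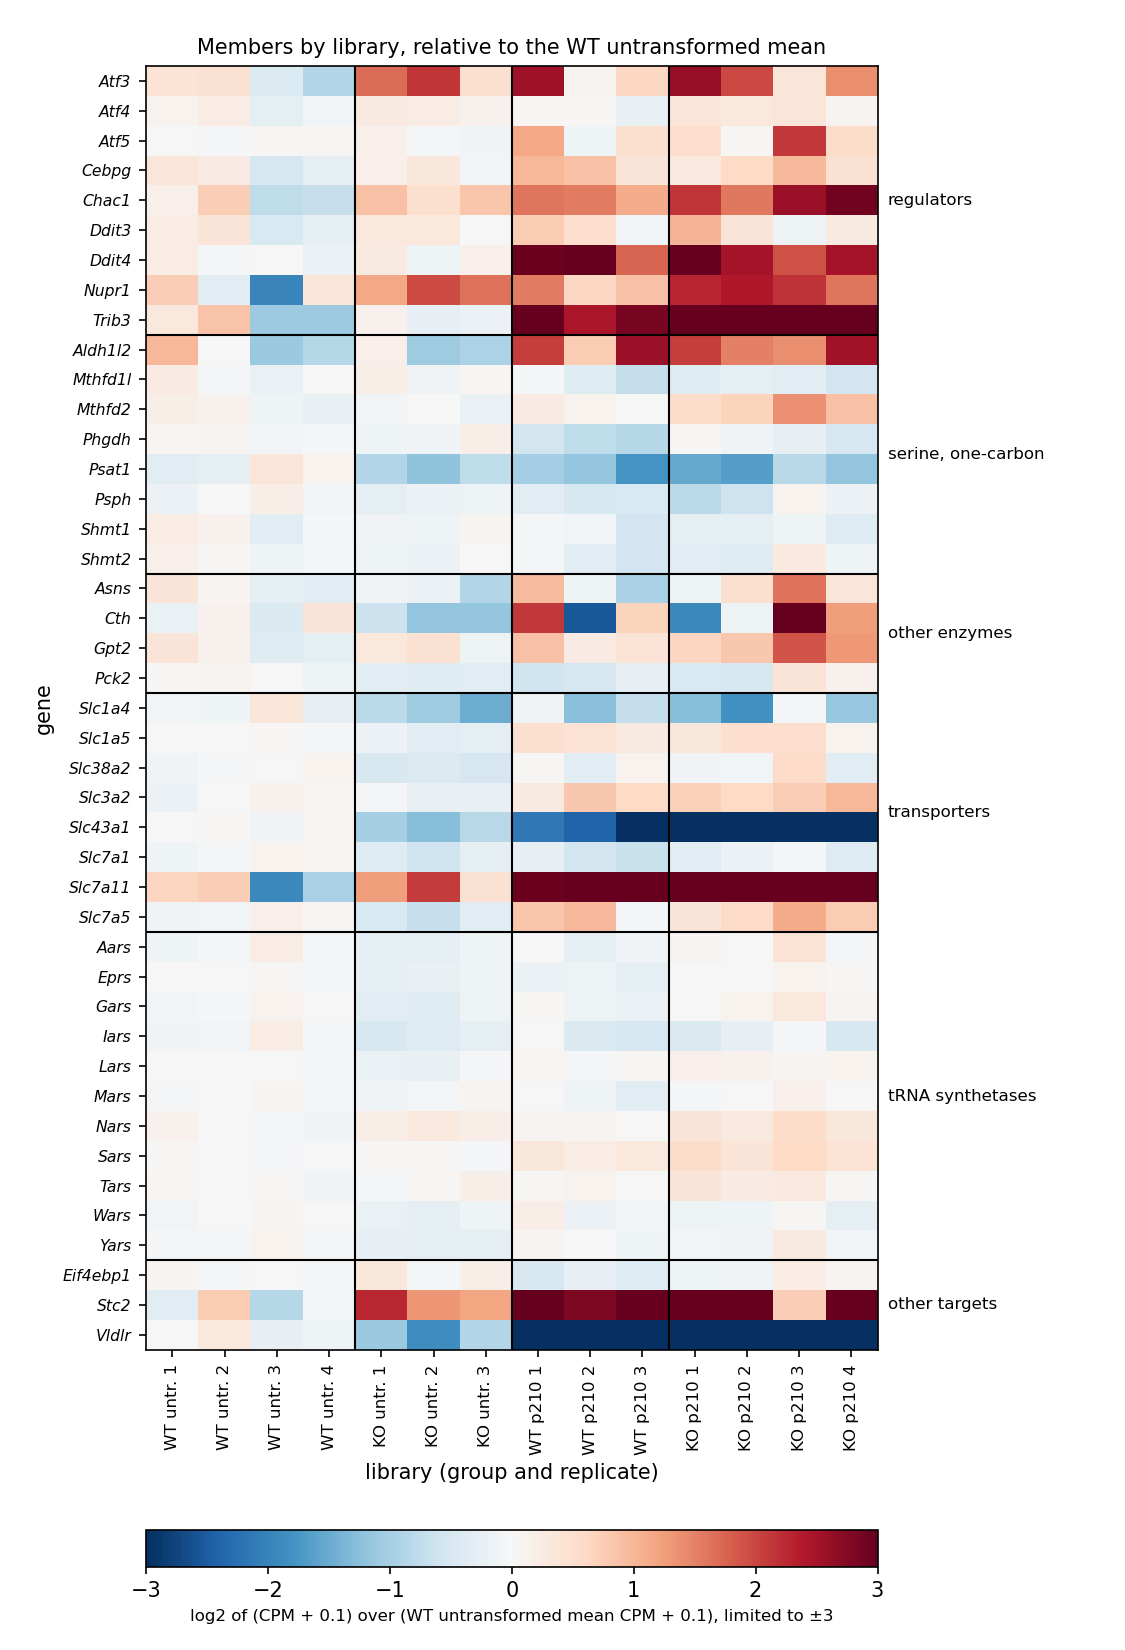
Colour gives the log2 ratio of each library (columns, by group) to the mean of the WT untransformed libraries for the 43 tested genes (rows, by class), with 0.1 CPM added to both and limited to 3 either way. Trib3, Ddit4 and Slc7a11 are red in all 7 p210 libraries, Slc43a1 and Vldlr are blue there, and the synthetases are pale throughout.

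Among the regulators, the transcript of Atf4 itself did not pass the test in any comparison. Atf4 (chromosome 15, 80255184 to 80257540) stood at 335, 361, 255 and 296 CPM in WT and 377, 364 and 339 CPM in KO untransformed libraries. The p210 libraries held 325, 319.6 and 267 CPM (WT) and 401, 391, 402 and 329 CPM (KO). The states overlapped within each genotype, all KO p210 libraries lay just above the WT p210 libraries, and the log2 fold change with p210 was -0.04 ± 0.12 (SE, adjusted p = 0.831) in WT and 0.08 ± 0.12 (SE, adjusted p = 0.629) in KO lines. Trib3, a pseudokinase that ATF4 induces and that restrains it, had the largest fitted change of the 9 regulators in both genotypes. Trib3 (chromosome 2, 152337422 to 152344032) stood at 4.36, 6.40, 1.59 and 1.58 CPM in WT and 3.82, 2.94 and 3.05 CPM in KO untransformed libraries. After transformation the levels were 31.4, 19.5 and 25.6 CPM in WT and 28.8, 29.8, 44.4 and 38.8 CPM in KO libraries. Every p210 library was above every untransformed library, and the genotypes overlapped within p210. The p210 mean was 7.32-fold higher in WT (2.87 ± 0.43, adjusted p = 0.000412) and 10.9-fold higher in KO lines (3.44 ± 0.48, adjusted p = 0.000319). Ddit4, an inhibitor of mTORC1, stood at 19.9, 16.3, 16.9 and 15.2 CPM in WT and 20.6, 15.4 and 19.1 CPM in KO untransformed libraries. Levels in p210 lines were 132, 178 and 57.7 CPM (WT) and 138, 96.5, 64.7 and 96.1 CPM (KO). No untransformed library reached 21 CPM and no p210 library was under 57.7 CPM. Its log2 fold change came to 2.85 ± 0.33 (SE, adjusted p = 8.37e-05) in WT and 2.43 ± 0.35 (SE, adjusted p = 0.000368) in KO lines.

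Chac1, which degrades glutathione and whose promoter stretch is shown above, was low but rose in both genotypes. It went from 0.763, 1.19, 0.357 and 0.376 to 2.26, 2.18 and 1.57 CPM in WT and from 1.32, 0.980 and 1.28 to 3.29, 2.20, 4.51 and 5.65 CPM in KO lines. The states did not overlap within a genotype, with log2 fold changes of 1.57 ± 0.43 (SE, adjusted p = 0.013) and 1.71 ± 0.45 (SE, adjusted p = 0.011). Cebpg, a C/EBP protein that pairs with ATF4, went from between 17.8 and 32.7 CPM to between 33.3 and 51.3 CPM in WT lines and passed the test there (0.79 ± 0.23, adjusted p = 0.0185), while in KO lines the log2 fold change came to 0.46 ± 0.24 (SE, adjusted p = 0.145). The Cebpg call in WT lines was lost without WT untransformed replicate 4 (adjusted p = 0.0524), WT p210 replicate 1 (0.07) or WT p210 replicate 2 (0.0581). Ddit3 (CHOP), the factor linked to death under lasting stress, stood at 18.6, 21.0, 11.6 and 12.997 CPM in WT and 20.0, 20.0 and 16.0 CPM in KO untransformed libraries. In p210 libraries the values were 27.1, 22.9 and 15.2 CPM (WT) and 32.5, 21.0, 14.5 and 19.3 CPM (KO). The groups overlapped, with log2 fold changes of 0.44 ± 0.29 (SE, adjusted p = 0.243) in WT and 0.23 ± 0.29 (SE, adjusted p = 0.572) in KO lines. Ddit3 and the synthetase gene Mars overlap at their ends on opposite strands, and the counting was by strand. Atf3 and Atf5 did not pass in either genotype and spread widely within groups. Atf3 ran from 16.4 to 90.8 CPM over the WT p210 libraries and from 19.8 to 95.0 CPM over the KO p210 libraries. Atf5 was at 45.2 CPM in KO p210 replicate 3 against 10.5 to 15.1 CPM in the other KO p210 libraries. Nupr1, a stress-induced chromatin protein, had log2 fold changes of 1.13 ± 0.52 (SE, adjusted p = 0.102) and 0.53 ± 0.52 (SE, adjusted p = 0.449). In all, 4 of 9 regulators rose in WT and 3 of 9 in KO lines and none fell, with class medians of 1.13 and 0.53.

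**Figure D2:**
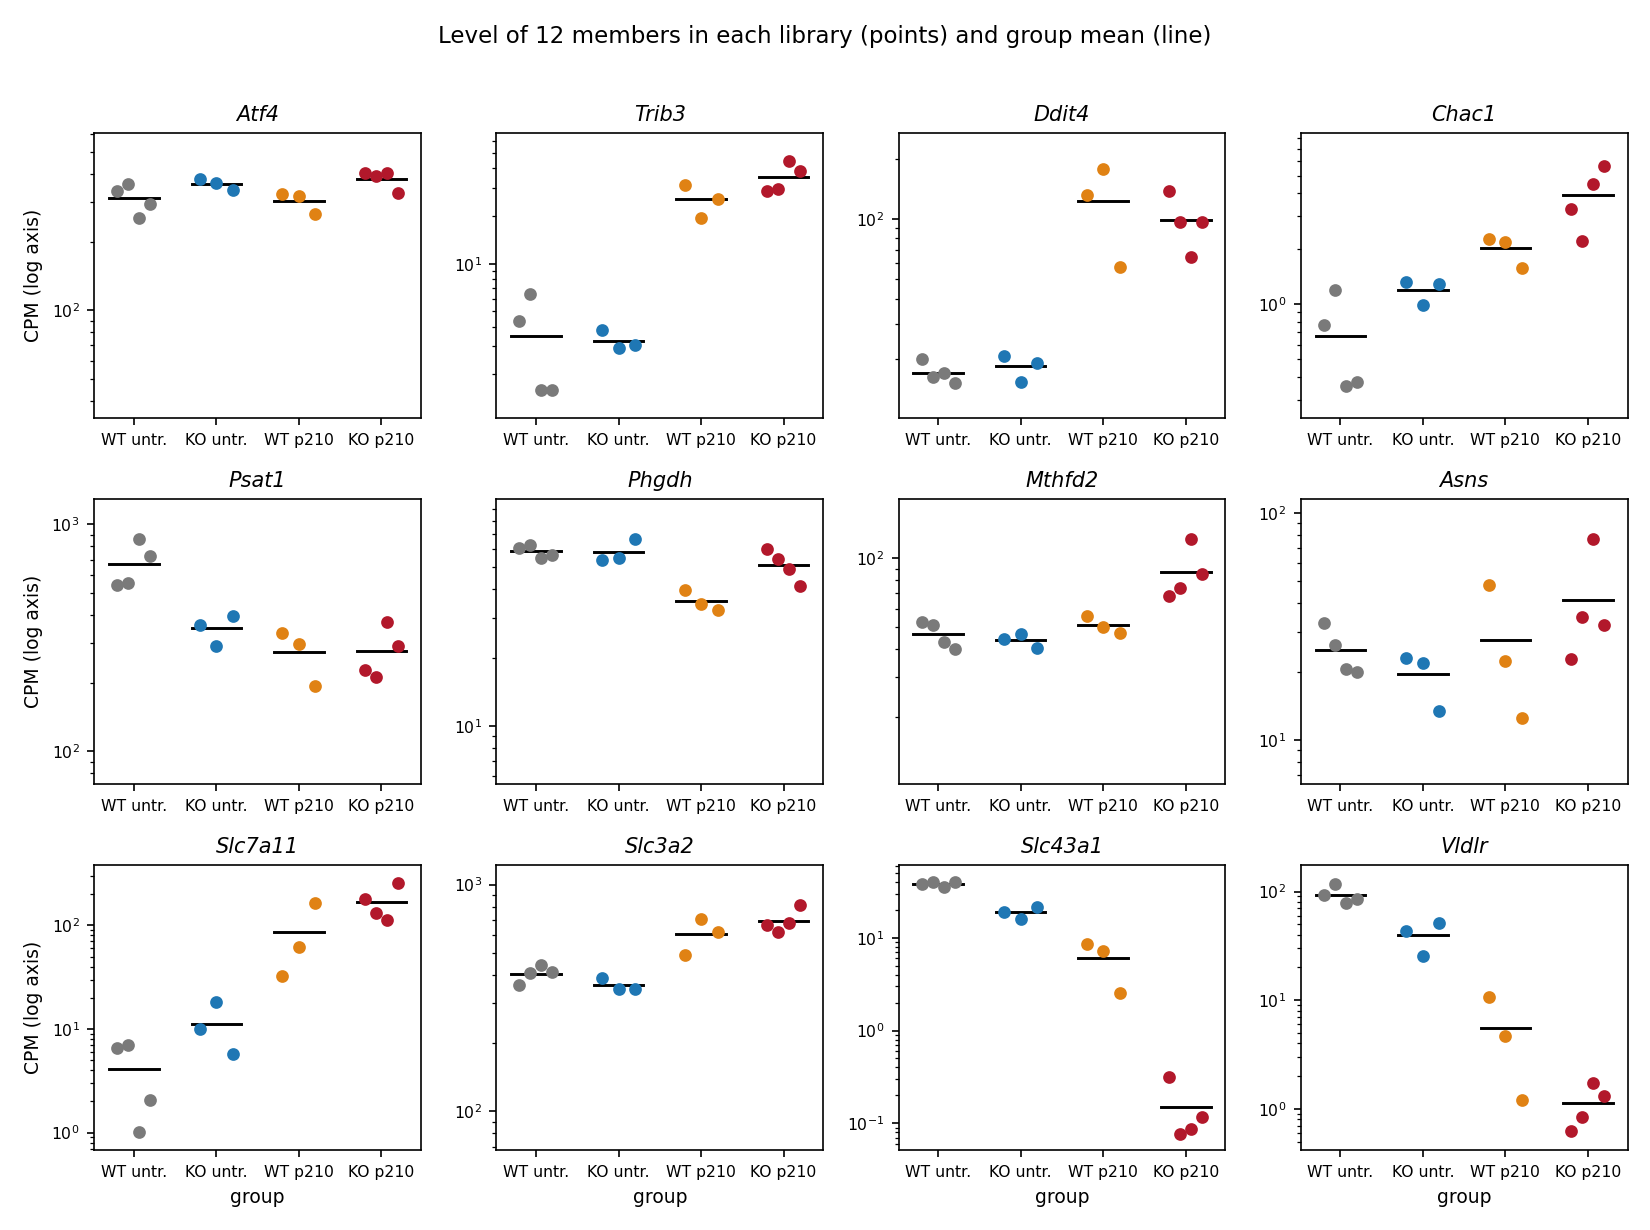
Points are the CPM of 12 members in each of the 14 libraries on log axes, and lines are group means. Atf4 varies little between groups, Trib3, Ddit4 and Slc7a11 separate p210 from untransformed libraries, and Slc43a1 falls from 35.6 to 40.4 CPM in WT untransformed to 0.0772 to 0.314 CPM in KO p210 libraries.

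The serine synthesis genes did not rise with p210, while mitochondrial one-carbon genes moved in both directions. Psat1, the aminotransferase of the pathway, stood at 538, 551, 859.7 and 724 CPM in WT and 362, 291 and 396 CPM in KO untransformed libraries. The p210 libraries held 332, 297 and 194 CPM (WT) and 229, 212, 373 and 292 CPM (KO). All WT untransformed libraries were above all others, and the other 3 groups overlapped. Psat1 fell with p210 in WT lines (-1.28 ± 0.25, adjusted p = 0.00196), and in KO lines its log2 fold change came to -0.34 ± 0.24 (SE, adjusted p = 0.294). Phgdh (chromosome 3, 98313170 to 98339990) stood at 60.9, 62.5, 55.1 and 56.7 CPM in WT and 54.0, 54.8 and 66.5 CPM in KO untransformed libraries. After transformation the levels were 39.9, 34.6 and 32.3 CPM in WT and 60.05, 54.3, 49.4 and 41.5 CPM in KO libraries. The WT p210 libraries were the lowest of the 4 groups, and Phgdh fell in WT lines (-0.72 ± 0.13, adjusted p = 0.000941) with a value of -0.19 ± 0.12 (SE, adjusted p = 0.252) in KO lines. Psph, the last enzyme of serine synthesis, had log2 fold changes of -0.41 (adjusted p = 0.0917) and -0.13 (adjusted p = 0.608). The serine hydroxymethyltransferases, which pass the one-carbon unit of serine to folate, gave -0.21 (adjusted p = 0.265) and -0.21 (adjusted p = 0.269) for the cytosolic Shmt1 and -0.30 (adjusted p = 0.158) and -0.01 (adjusted p = 0.97) for the mitochondrial Shmt2 in WT and KO lines.

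Mthfd2, the mitochondrial dehydrogenase and cyclohydrolase that is known to be high in dividing and transformed cells, stood at 52.5, 50.7, 42.8 and 40.0 CPM in WT and 43.9, 46.3 and 40.2 CPM in KO untransformed libraries. Levels in p210 lines were 55.6, 50.0 and 46.9 CPM (WT) and 68.4, 73.6, 121 and 85.0 CPM (KO). KO p210 libraries were above all other libraries, and the WT p210 range overlapped that of WT untransformed libraries. Mthfd2 rose with p210 in KO lines (1.00 ± 0.18, adjusted p = 0.00126), and in WT lines its log2 fold change came to 0.13 ± 0.17 (SE, adjusted p = 0.586). The difference between these 2 changes was 0.87 ± 0.25 (SE, adjusted p = 0.212) and did not pass the test of the interaction. Mthfd1l, which releases formate from mitochondria, went the other way, from between 110.2 and 135 CPM to between 78.9 and 96.4 CPM in KO lines, where it fell (-0.44 ± 0.14, adjusted p = 0.0308), and its log2 fold change in WT lines was -0.36 (adjusted p = 0.0685). That KO call of Mthfd1l was lost without KO untransformed replicate 1 (adjusted p = 0.117) or 3 (0.0755) and without KO p210 replicate 1 (0.0511) or 4 (0.0732). With cell line as a block Mthfd1l was also called lower in WT lines (adjusted p = 0.0452), as was Shmt2 (0.0256). Aldh1l2, the mitochondrial folate dehydrogenase, was rare and rose in both genotypes. It went from 0.808, 0.359, 0.110 and 0.151 to 1.82, 0.672 and 2.64 CPM in WT (2.30 ± 0.68, adjusted p = 0.0187). It went from 0.409, 0.118 and 0.138 to 1.83, 1.20, 1.11 and 2.53 CPM in KO lines (2.95 ± 0.77, adjusted p = 0.0104). The states overlapped in WT and not in KO lines. In WT lines that Aldh1l2 call was lost with cell line as a block (adjusted p = 0.118), without WT untransformed replicate 4 (0.0525) and without WT p210 replicate 3 (0.0737), and in KO lines without KO untransformed replicate 3 (0.0517). Of the 8 genes of the class, 1 rose and 2 fell in WT lines, and 2 rose and 1 fell in KO lines, with medians of -0.33 and -0.16.

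Of the 4 other amino acid enzymes tested, only Gpt2 in KO lines passed. Asns, which makes asparagine and is a classical ATF4 target, stood at 32.7, 26.2, 20.5 and 19.8 CPM in WT and 23.0, 21.9 and 13.4 CPM in KO untransformed libraries. In p210 libraries the values were 48.2, 22.3 and 12.5 CPM (WT) and 22.7, 34.9, 76.6 and 32.0 CPM (KO). The groups overlapped, the highest values being in KO p210 replicate 3 and WT p210 replicate 1, and the log2 fold changes were 0.16 ± 0.46 (SE, adjusted p = 0.806) and 1.10 ± 0.48 (SE, adjusted p = 0.0913). Pck2, the mitochondrial PEP carboxykinase, was the most abundant of the class and stood at 95.5, 100.1, 95.4 and 84.9 CPM in WT and 73.8, 73.0 and 75.1 CPM in KO untransformed libraries. The p210 libraries held 62.2, 66.5 and 79.3 CPM (WT) and 68.0, 67.2, 123 and 102 CPM (KO). The states overlapped in KO but not in WT lines, with log2 fold changes of -0.44 ± 0.19 (SE, adjusted p = 0.0789) and 0.28 ± 0.19 (SE, adjusted p = 0.25). With cell line as a block Pck2 was called lower in WT lines (adjusted p = 0.0463). Gpt2, the mitochondrial alanine aminotransferase, went from 10.5, 11.6 and 7.51 to 13.1, 14.9, 31.3 and 20.9 CPM in KO lines (1.03 ± 0.31, adjusted p = 0.0228). The highest value was again in KO p210 replicate 3, and the Gpt2 call was lost without that library (adjusted p = 0.058), without KO untransformed replicate 1 (0.0558) or 3 (0.092), and with cell line as a block (0.102). Cth, the second transsulfuration enzyme, ran from 0 to 2.42 CPM over WT p210 libraries and from 0.0523 to 5.76 CPM over KO p210 libraries, the highest being KO p210 replicate 3, and did not pass in any comparison.

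Transporters held large changes in both directions. Slc7a11 (chromosome 3, 49892526 to 50443614), the cystine and glutamate exchanger that feeds glutathione synthesis, stood at 6.56, 6.95, 1.02 and 2.08 CPM in WT and 10.04, 18.0 and 5.72 CPM in KO untransformed libraries. After transformation the levels were 32.5, 62.5 and 164 CPM in WT and 182, 131, 112 and 254 CPM in KO libraries. All p210 libraries were above all untransformed libraries, and the mean was 20.8-fold higher in WT (4.39 ± 0.73, adjusted p = 0.000722) and 15.1-fold higher in KO lines (3.92 ± 0.78, adjusted p = 0.00246). Its promoter stretch with 2 core matches is shown above. Its partner Slc3a2 stood at 361, 407, 441 and 413 CPM in WT and 387, 348 and 346 CPM in KO untransformed libraries. Levels in p210 lines were 488, 709 and 616 CPM (WT) and 663, 617, 679 and 811 CPM (KO). The states again did not overlap, and the log2 fold changes were 0.58 ± 0.13 in WT and 0.94 ± 0.13 in KO lines (adjusted p = 0.00383 and 0.000274). Slc7a5 (LAT1), the large neutral amino acid exchanger that also pairs with Slc3a2, stood at 218, 219.7, 257 and 237 CPM in WT and 168, 145 and 183 CPM in KO untransformed libraries. In p210 libraries the values were 415, 460.2 and 224 CPM (WT) and 302, 345, 501 and 392 CPM (KO). WT p210 replicate 3 lay within the WT untransformed range while the other p210 libraries were above it, and the log2 fold change came to 0.66 ± 0.22 (SE, adjusted p = 0.0336) in WT and 1.22 ± 0.23 (SE, adjusted p = 0.00182) in KO lines. In WT lines the Slc7a5 call was lost with cell line as a block (adjusted p = 0.132). It was also lost without WT untransformed replicate 1 (0.0775), 2 (0.0767) or 4 (0.0687), without KO untransformed replicate 1 (0.0513) and without WT p210 replicate 1 (0.117) or 2 (0.155). Slc1a5, the glutamine carrier ASCT2, went from between 153 and 161 CPM to between 191 and 221 CPM in WT (0.40 ± 0.09, adjusted p = 0.00468) and from between 126 and 139 CPM to between 169 and 226 CPM in KO lines (0.64 ± 0.09, adjusted p = 0.000389).

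Slc43a1 (chromosome 2, 84838850 to 84863594), the facilitative leucine carrier LAT3, stood at 38.4, 39.5, 35.6 and 40.4 CPM in WT and 19.1, 15.8 and 21.5 CPM in KO untransformed libraries. The p210 libraries held 8.57, 7.22 and 2.54 CPM (WT) and 0.314, 0.0772, 0.0873 and 0.117 CPM (KO). The 4 groups were ordered without any overlap, WT untransformed highest and KO p210 lowest, and KO p210 libraries held 14 counts in all against 538 in WT p210 libraries, so the size of its fitted changes there rests on few counts. The fall with p210 was -2.65 ± 0.38 (SE, adjusted p = 0.000305) in WT and -7.06 ± 0.47 (SE, adjusted p = 5.55e-06) in KO lines. Slc7a1, the cationic amino acid carrier CAT1, fell in WT lines, from between 146 and 170.4 CPM to between 99.9 and 134 CPM (-0.48 ± 0.12, adjusted p = 0.0077), a call lost with cell line as a block (adjusted p = 0.0697). Its log2 fold change in KO lines was 0.19 ± 0.12 (SE, adjusted p = 0.233). Slc38a2 (SNAT2), an adaptive neutral amino acid carrier, passed in KO lines (0.51 ± 0.18, adjusted p = 0.0414), its value in WT lines was -0.05 ± 0.18 (SE, adjusted p = 0.852), and the difference between these did not pass (0.56 ± 0.25, adjusted p = 0.346). It stood at 115, 119.5 and 113 CPM in untransformed and 149, 149, 236 and 125 CPM in p210 KO libraries. The Slc38a2 call was lost in 16 of the 29 alternatives, among them without KO p210 replicate 3 (log2 fold change 0.29, adjusted p = 0.0604). The others included the fits without any 1 of the KO untransformed libraries (adjusted p = 0.0848 to 0.109), without WT untransformed replicate 2 (0.0518) or 4 (0.0503) and with cell line as a block (0.0917). Slc1a4, which carries serine and alanine, was low and gave -0.62 (adjusted p = 0.233) and 0.18 (adjusted p = 0.747). Of the 8 transporters 4 rose and 2 fell in WT lines, and 5 rose and 1 fell in KO lines.

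The 11 cytosolic tRNA synthetases, which charge tRNAs with their amino acids, changed little in size. In KO lines 6 of 11 rose with p210 and all 11 fitted log2 fold changes were positive, from 0.04 to 0.47 with a median of 0.26 (all genes 7170 of 14512 positive). In WT lines 1 rose, 1 fell and 4 were positive, with a median of -0.01. Over the alternatives the lowest KO value was below 0 for Wars, Mars, Iars and Tars, none of which passed. The difference between genotypes was positive for all 11 (for Tars not under every alternative), with a median of 0.26, and 0 of 11 passed edgeR's test of the interaction, with 5 at an unadjusted p under 0.05. Sars, for serine, rose in both genotypes. It went from 142, 138, 135 and 136 to 175, 159 and 171 CPM in WT (0.29 ± 0.06, adjusted p = 0.0031). It went from 141, 141 and 134 to 201, 180.3, 208 and 182 CPM in KO lines (0.47 ± 0.06, adjusted p = 0.000208), with no overlap between the states. Eprs, for glutamate and proline, stood at 349, 343, 352 and 335 CPM in WT and 279.6, 294 and 314 CPM in KO untransformed libraries. After transformation the levels were 303, 312 and 283 CPM in WT and 340.4, 348, 371 and 354 CPM in KO libraries. It fell in WT (-0.20 ± 0.06, adjusted p = 0.0174) and rose in KO lines (0.26 ± 0.06, adjusted p = 0.00595), and the difference between these did not pass (0.46 ± 0.08, adjusted p = 0.0942). Both calls were lost with cell line as a block (adjusted p = 0.0758 and 0.0667). The fall of Eprs in WT lines was also lost without WT p210 replicate 3 (adjusted p = 0.0532). Nars, the most abundant of the class, stood at 244 to 285 and 259.6 to 277 CPM in WT and 300.3 to 319 and 321 to 382 CPM in KO untransformed and p210 libraries, with log2 fold changes of 0.05 (adjusted p = 0.601) and 0.16 (adjusted p = 0.107).

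Gars, for glycine, went from 168, 166 and 189.7 to 212, 228, 262 and 225 CPM in KO lines (0.41 ± 0.09, adjusted p = 0.00371). Lars, for leucine, went from 141, 139.8 and 156 to 179.5, 177, 172 and 175 CPM (0.28 ± 0.05, adjusted p = 0.00198). Every KO p210 library was above every KO untransformed library for both genes. Aars, for alanine (0.35 ± 0.12, adjusted p = 0.0395), and Yars, for tyrosine (0.28 ± 0.09, adjusted p = 0.0319), also rose in KO lines. They reached 229, 217, 289 and 212 CPM for Aars and 84.3, 83.6, 108 and 84.8 CPM for Yars, the highest value of each being in KO p210 replicate 3. The Aars call was lost without KO p210 replicate 3 (adjusted p = 0.0922), without KO p210 replicate 1 (0.0538), any 1 of the KO untransformed libraries (0.0589 to 0.127) or WT untransformed replicate 2 (0.0507) or 4 (0.0517). The Yars call was lost without any 1 of the KO untransformed libraries (adjusted p = 0.0716 to 0.0868). Both calls were lost with cell line as a block (adjusted p = 0.153 for Aars and adjusted p = 0.154 for Yars). Tars, Mars, Iars and Wars did not pass in any comparison. Among genes with a promoter window and a match to TGATGNAA, 6 of 14 tested rose and 1 fell in KO lines, against 8 and 2 of the 20 without a match. In WT lines 3 rose and 1 fell with a match, against 5 and 5 without.

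The 3 remaining targets changed in different directions. Vldlr (chromosome 19, 27216484 to 27254231), a lipoprotein receptor that ATF4 is known to induce and whose promoter stretch with a core match is shown above, stood at 92.6, 116, 79.1 and 86.0 CPM in WT and 42.9, 25.6 and 51.1 CPM in KO untransformed libraries. Levels in p210 lines were 10.6, 4.67 and 1.22 CPM (WT) and 0.627, 0.850, 1.72 and 1.33 CPM (KO). All untransformed libraries were above all p210 libraries, and Vldlr fell, with log2 fold changes of -4.07 ± 0.59 in WT and -5.10 ± 0.58 in KO lines (adjusted p = 0.000326 and 9.48e-05). Stc2, a secreted glycoprotein, was near the floor in untransformed lines, with 15 counts over the WT and 42 over the KO libraries, and stood at 3.52, 1.18 and 2.23 CPM in WT p210 and 12.6, 5.79, 0.204 and 1.36 CPM in KO p210 libraries. KO p210 replicate 3 was below the KO untransformed range (0.314 to 0.773 CPM) while the other p210 libraries were above all untransformed ones. Its log2 fold change came to 4.63 ± 1.20 (SE, adjusted p = 0.00967) in WT and 3.39 ± 1.18 (SE, adjusted p = 0.0414) in KO lines. In KO lines the Stc2 call was lost with cell line as a block (adjusted p = 0.0501) and without KO p210 replicate 1 (0.108) or 2 (0.0664), any 1 of the KO untransformed libraries (0.0773 to 0.131) or WT untransformed replicate 1 (0.0511) or 4 (0.0545). Eif4ebp1, the translation repressor 4E-BP1, fell in WT lines from between 62.4 and 68.5 CPM to between 47.0 and 55.3 CPM (-0.36 ± 0.11, adjusted p = 0.0169), a call lost without WT p210 replicate 1 (adjusted p = 0.0511), and gave -0.14 ± 0.10 (SE, adjusted p = 0.315) in KO lines.

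**Figure D3:**
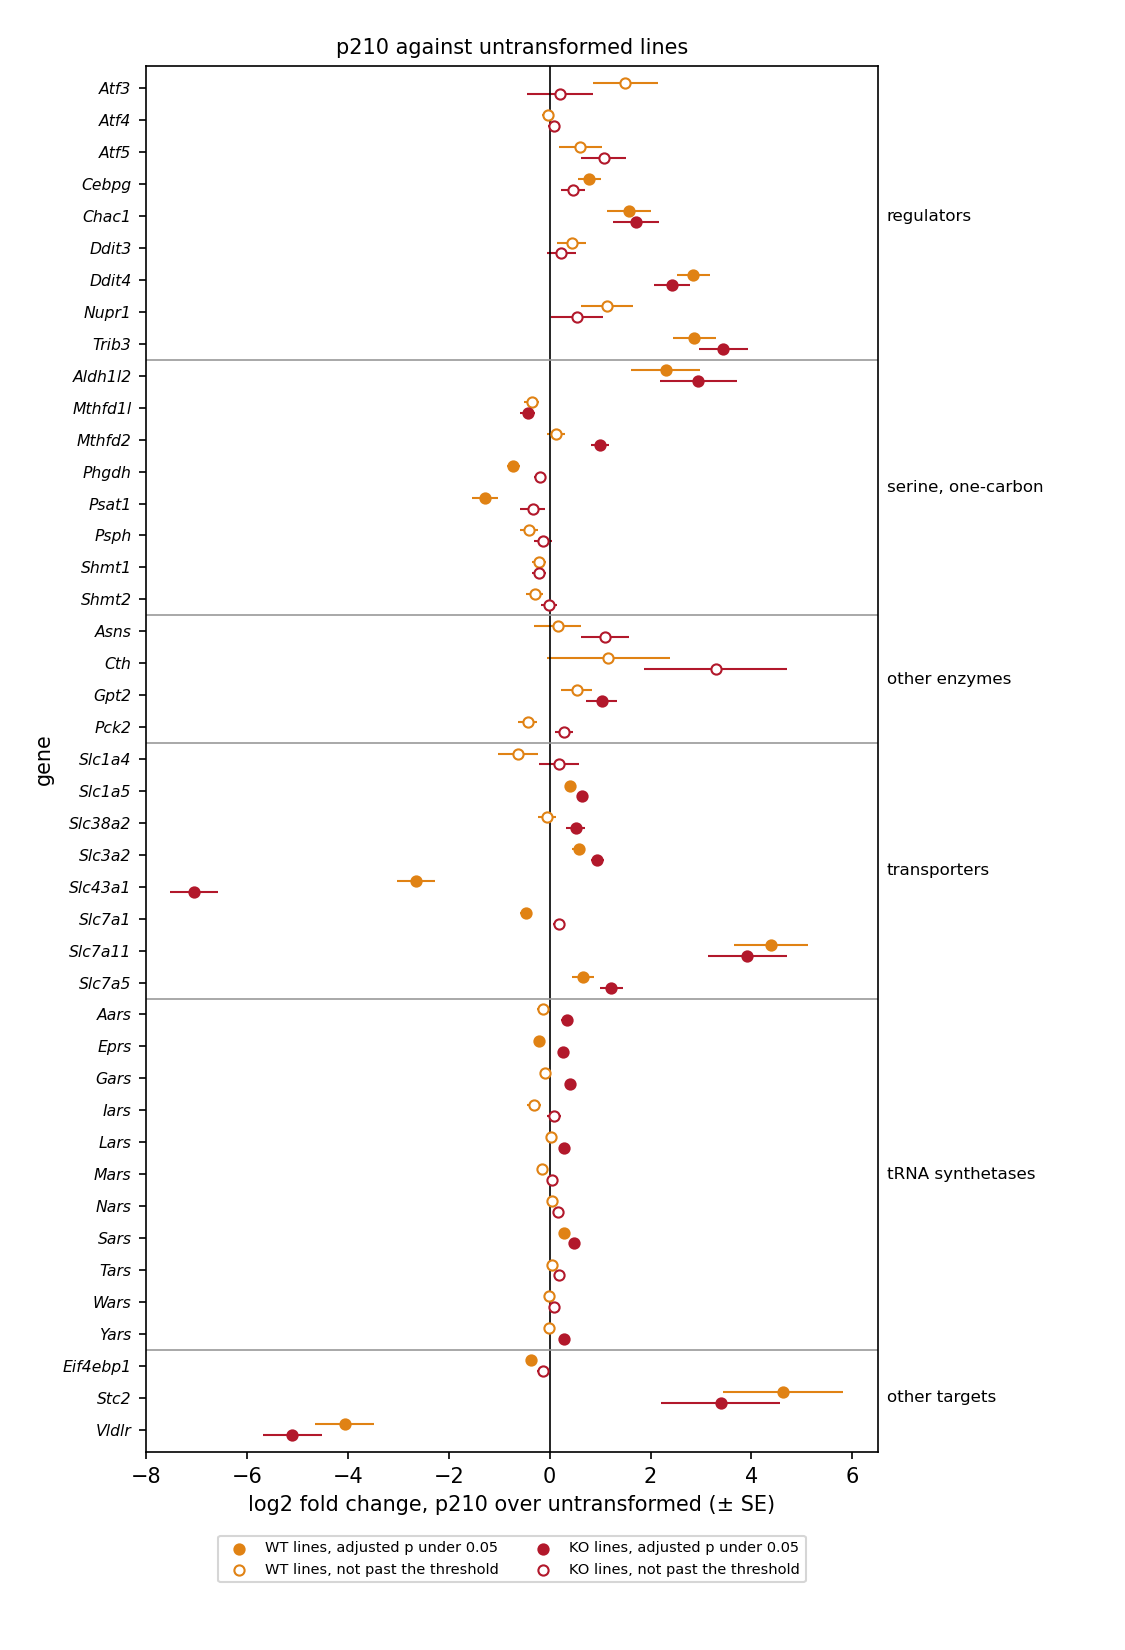
Points are log2 fold changes of p210 over untransformed lines with SE bars, orange for WT and red for KO lines, filled where the adjusted p was under 0.05. In KO lines 18 members are filled to the right and 3 to the left, in WT lines 11 and 7, and Slc7a11 and Stc2 lie far to the right and Vldlr and Slc43a1 far to the left.

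Leaving out each of the 14 libraries in turn, 13 of the 18 calls in WT lines and 14 of the 21 in KO lines were kept in every fit. The 13 were Trib3, Ddit4, Chac1, Phgdh, Psat1, Slc7a1, Slc7a11, Slc3a2, Slc1a5, Slc43a1, Sars, Stc2 and Vldlr, and the 14 were Trib3, Ddit4, Chac1, Mthfd2, Slc7a5, Slc7a11, Slc3a2, Slc1a5, Slc43a1, Gars, Sars, Eprs, Lars and Vldlr. Without KO p210 replicate 2 the KO count was again 18 higher and 3 lower, with Stc2 lost and Atf5 gained (adjusted p = 0.0368). Over all genes that fit gave 2566 higher and 2250 lower in KO lines. With cell line as a block the counts were 9 higher and 8 lower in WT lines and 12 higher and 3 lower in KO lines. Over all genes the block gave 2167 higher and 1661 lower in WT and 1877 and 1709 in KO lines. The deposited libraries carry 2 codes. Among those of the first code alone (replicates 1 and 2 of each group) 8 were higher and 6 lower in WT lines, beside 2004 and 1721 of all genes. In KO lines 14 were higher and 4 lower, beside 2172 and 2014 of all genes. Among those of the second, with 1 library in 2 of the groups, 4 and 3 were called in WT lines and 1 and 2 in KO lines, with member medians of -0.07 and 0.36. Over all genes that second code gave 1003 higher and 563 lower in WT lines and 30 and 43 in KO lines. Descriptions name 2 sequencing runs for 6 of the 14 libraries and none of the WT p210 libraries. With the number of runs as a covariate 6 members were higher and 5 lower in WT lines, beside 2070 and 1582 of all genes.

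Between genotypes in untransformed lines, the stress-induced Nupr1 was higher in KO than in WT, and the serine synthesis gene Psat1, the carrier gene Slc7a1 and the synthetase genes Gars and Eprs were lower. These 1 higher and 4 lower of 43 genes stand beside 8.73% of all genes that were higher and 6.5% that were lower. The count rested on the fit, with 3 higher and 11 lower by DESeq2 and 2 higher and 15 lower when only these 2 groups were fitted (over all genes 1775 and 1724, and 1734 and 1665). Under library size scaling, which moves the median of all genes by -0.102, 0 members were higher and 8 lower, and over all genes 915 were higher and 1657 lower, against 1267 and 944. The median log2 fold change was -0.11 (all genes -0.02). Psat1 was lower in all 3 KO libraries (362, 291 and 396 CPM) than in any WT library (538, 551, 859.7 and 724 CPM), a log2 fold change of -0.93 ± 0.25 (SE, adjusted p = 0.0287). Slc7a1 stood at 121, 105 and 132 against 146, 156, 170.4 and 163 CPM (-0.41 ± 0.12, adjusted p = 0.0377). Gars was at 168, 166 and 189.7 against 199.99, 208, 229 and 211 CPM (-0.28 ± 0.09, adjusted p = 0.0489). Eprs was at 279.6, 294 and 314 against 349, 343, 352 and 335 CPM (-0.22 ± 0.06, adjusted p = 0.0303). For these 3 genes no KO library reached the WT range. Nupr1 was at 3.68, 6.43 and 5.11 CPM in KO and 2.69, 1.25, 0.330 and 2.08 CPM in WT libraries (1.68 ± 0.52, adjusted p = 0.0478), again without overlap. Of the 8 transporters 1 passed, with 7 fitted values negative and a median of -0.44, and of the 11 synthetases 2 passed, with 8 values negative (Mars, Sars and Tars changed sign among the alternatives) and a median of -0.21. Over all genes 7497 of 14512 fitted values were negative. Atf4 gave 0.21 (adjusted p = 0.246), Ddit3 0.22 (adjusted p = 0.637), Asns -0.35 (adjusted p = 0.642), Phgdh -0.01 (adjusted p = 0.972), Mthfd2 -0.10 (adjusted p = 0.743) and Slc7a11 1.44 (adjusted p = 0.169). Values for abundant members of the other classes were -0.35 (adjusted p = 0.218) for Pck2, -0.17 (adjusted p = 0.386) for Slc3a2, 0.23 (adjusted p = 0.0526) for Nars and 0.17 (adjusted p = 0.285) for Eif4ebp1.

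None of these 5 calls in untransformed lines was kept in every fit that left out 1 library. The count was 0 without KO untransformed replicate 1 or 2, 1 when WT untransformed replicate 4 was left out, 2 for replicate 2 or 3 of that group, and 3 without WT p210 replicate 2 or KO p210 replicate 2. It was 8 without WT p210 replicate 1 or KO p210 replicate 3 and 10 without WT p210 replicate 3. The p210 libraries entered this comparison through the shared spread, the filter on low counts and the scaling, not through the groups compared. Among these fits Eprs was lost only without the KO untransformed replicates 1 and 2 (adjusted p = 0.086 and adjusted p = 0.094), and Psat1 also without WT untransformed replicate 3 or 4 (adjusted p up to 0.13). Nupr1 was lost in 10, Gars in 8 and Slc7a1 in 5 of these 14 fits. Over all genes the fit without KO untransformed replicate 1 called 392 higher and 299 lower, and that without replicate 2 called 109 and 72. With the first code alone 2 members were called lower, beside 209 genes of all tested that were higher and 226 lower. The second code alone, with 1 KO library, called 0 genes of all tested, so its count of members says nothing about them. The summed neutrophil and monocyte markers given above separated these same groups without overlap, higher in KO. The lymphoid and dendritic cell sums did so too, also higher in KO. Megakaryocyte and erythroid markers separated them the other way, at 885 to 1477 CPM in KO and 1941 to 5088 CPM in WT. Of the 7 listed, 3 were lower in KO and 0 higher. The progenitor, mast cell and basophil, and stromal and endothelial sums overlapped. The part of these cell types was not tested.

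In p210 lines, 4 members were higher in KO than in WT (Phgdh, Mthfd2, Nars and Eprs) and 2 lower (Slc43a1 and Vldlr), beside 0.882% of all genes that were higher and 3.56% that were lower. Under library size scaling 0 were higher and 2 lower, and over all genes 69 were higher and 722 lower, against 128 and 517. Fitted values were positive for 33 of 43 genes, with a median of 0.19 (all genes 7206 of 14512, median -0.00139). Of the 11 synthetases 2 passed and 10 values were positive (Yars and Iars not under every alternative), with a median of 0.19. Mthfd2 was at 68.4, 73.6, 121 and 85.0 CPM in KO and 55.6, 50.0 and 46.9 CPM in WT libraries (0.78 ± 0.18, adjusted p = 0.0304). Phgdh was at 60.05, 54.3, 49.4 and 41.5 against 39.9, 34.6 and 32.3 CPM (0.53 ± 0.13, adjusted p = 0.0358), and neither gene overlapped. Nars stood at 339, 321, 382 and 329 against 277, 276 and 259.6 CPM (0.34 ± 0.07, adjusted p = 0.0247). Eprs was at 340.4, 348, 371 and 354 against 303, 312 and 283 CPM (0.24 ± 0.06, adjusted p = 0.0423). Slc43a1 was the clearest difference, at 0.314, 0.0772, 0.0873 and 0.117 CPM in KO and 8.57, 7.22 and 2.54 CPM in WT libraries (-5.44 ± 0.46, adjusted p = 0.000245). It was kept without any 1 library and lost when only these 2 groups were fitted (adjusted p = 0.057) or with the second code alone (0.066). Vldlr had a log2 fold change of -2.26 ± 0.55 (SE, adjusted p = 0.0408), with WT p210 replicate 3 inside the KO range. Atf4 gave 0.33 (adjusted p = 0.153), Ddit3 0.00 (adjusted p = 0.998), Asns 0.58 (adjusted p = 0.542), Psat1 0.01 (adjusted p = 0.988) and Slc7a11 0.97 (adjusted p = 0.464). Pck2 gave 0.38 (adjusted p = 0.284), Slc3a2 0.20 (adjusted p = 0.424) and Eif4ebp1 0.39 (adjusted p = 0.0575).

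The Cdk6 level of KO p210 replicate 2 lay inside the WT p210 range. Without that library 2 members were higher in KO p210 than in WT p210 (Mthfd2, adjusted p = 0.0422, and Nars, 0.0384) and 1 lower (Slc43a1). Over all genes that fit gave 46 higher and 259 lower. Phgdh, Eprs and Vldlr were then at adjusted p = 0.0925, 0.0847 and 0.111. These were the least stable of the 6 calls, Phgdh being lost in 11 of the 14 fits that left out 1 library (adjusted p up to 0.0983), Eprs in 12 (up to 0.127) and Vldlr in 12 (up to 0.206). Leaving out other single libraries gave 1 call without WT p210 replicate 1, 2 without WT p210 replicate 3 and 3 without WT p210 replicate 2, KO p210 replicate 3 or 4, WT untransformed replicate 1, 2 or 4, or KO untransformed replicate 1 or 2. Mthfd2 was lost without any 1 WT p210 library or KO p210 replicate 4 (adjusted p = 0.0508 to 0.076) and Nars without WT p210 replicate 1 (0.0647) or 3 (0.0617). With the first code alone 2 members were higher and 2 lower, beside 202 and 453 of all genes. With the second code alone, which has 1 WT p210 library, 0 members were called, beside 0 genes of all that were higher and 4 lower, and fitted to the 2 groups alone 0, beside 2 and 3. These last 2 fits called too few genes for their 0 to say anything about the members. The comparison shares its KO p210 libraries with that of p210 against untransformed KO lines, and the untransformed genotype comparison shares its WT libraries with that of p210 in WT lines. Eprs, the 1 member called in all 4, therefore rests on repeated use of the same 4 groups.

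**Figure D4:**
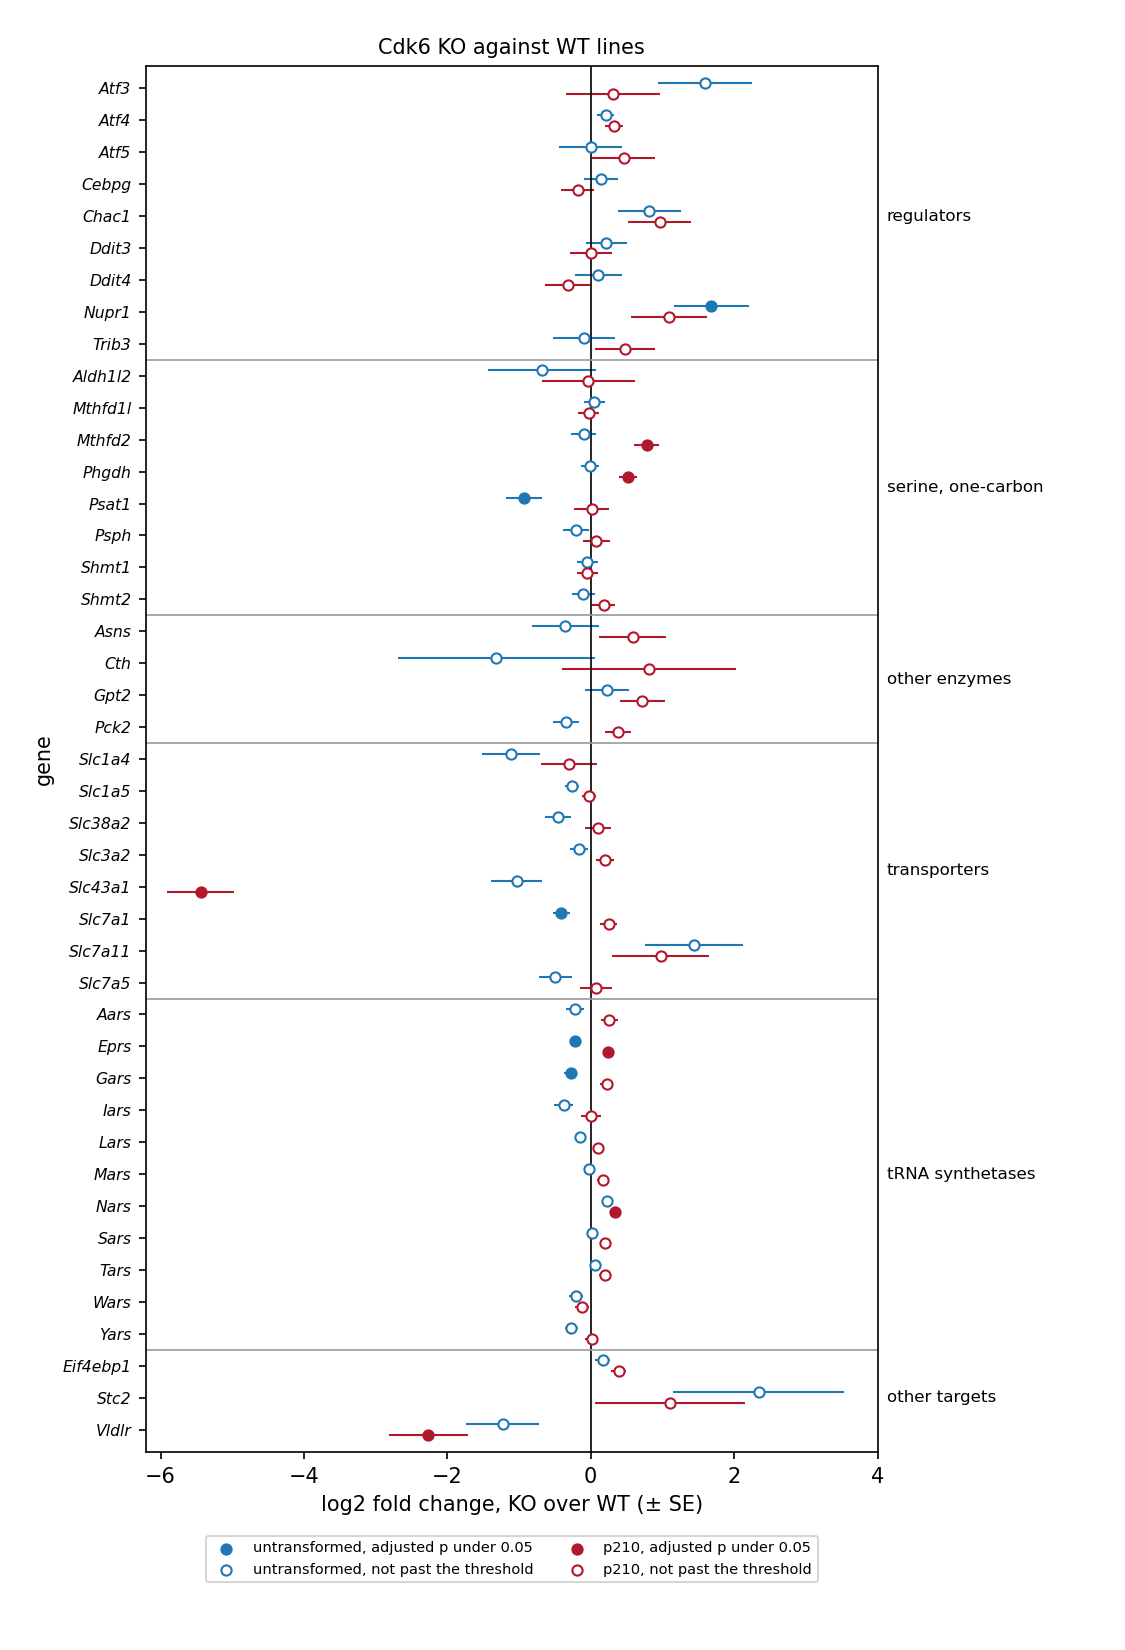
Points are log2 fold changes of KO over WT lines with SE bars, blue for untransformed and red for p210 lines, filled where the adjusted p was under 0.05. In untransformed lines 1 point is filled to the right and 4 to the left, in p210 lines 4 and 2, and Slc43a1 in p210 lines lies far to the left.

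The interaction tests whether the change with p210 differs between the genotypes, and 1 of 43 members passed it. By edgeR 0 were higher (0% of all genes) and 1 lower, beside 0.0345% of all genes, that is 5 of 14512. At an unadjusted p under 0.05 there were 11 members with a positive and 1 with a negative value, beside 832 and 1209 of all genes. The member was Slc43a1, for which the fall with p210 was larger in KO than in WT lines, with a difference of -4.41 ± 0.58 (SE, adjusted p = 0.0306) on the log2 scale. DESeq2 called 6 members, 5 of them higher (Mthfd2, Slc7a1, Gars, Eprs and Lars), and limma-voom 0. Over all genes DESeq2 called 136 higher and 273 lower, and limma-voom 0 and 4. The Slc43a1 call was lost in 16 of 28 alternatives, including cell line as a block (adjusted p = 0.443). It was also lost without any of WT untransformed replicates 2, 3 and 4, the 3 KO untransformed libraries and KO p210 replicates 2 and 3 (adjusted p = 0.064 to 0.123). Fitted values were positive for 33 of 43 genes, with a median of 0.28 (all genes 6807 of 14512, median -0.03). That member median was 0.104 with the first code alone and 0.192 with cell line as a block. Leaving out 1 library gave medians from 0.146 (KO p210 replicate 3) to 0.338 (KO p210 replicate 2). Atf4 gave 0.12 (adjusted p = 0.781), Ddit3 -0.21 (adjusted p = 0.837), Asns 0.94 (adjusted p = 0.54), Phgdh 0.53 (adjusted p = 0.258), Psat1 0.95 (adjusted p = 0.279) and Slc7a11 -0.46 (adjusted p = 0.85). Pck2 gave 0.72 (adjusted p = 0.278), Slc3a2 0.37 (adjusted p = 0.38), Nars 0.11 (adjusted p = 0.665) and Eif4ebp1 0.22 (adjusted p = 0.51). Mthfd2 and Eprs, whose values per library are given above, had 0.87 ± 0.25 (SE, adjusted p = 0.212) and 0.46 ± 0.08 (SE, adjusted p = 0.0942).

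The highest values of the set were not spread evenly over the libraries. KO p210 replicate 3 held the highest value of the 14 libraries for 19 of the 43 genes (44.2%), against 10.5% of all genes tested, and its line has no untransformed library among the 14. The 19 were 7 of the 11 synthetases (Eprs, Sars, Yars, Gars, Aars, Mars and Nars), Trib3, Atf4 and Atf5, Mthfd2 and Shmt2, the 4 other enzymes tested (Asns, Cth, Gpt2 and Pck2), and Slc7a5, Slc1a5 and Slc38a2. Asns was at 76.6 CPM there against 22.7 to 34.9 CPM in the other KO p210 libraries, while Stc2 was lowest there of its group. Without this library the KO counts with p210 were 15 higher and 3 lower and the member median 0.29, beside 2555 and 2320 of all genes. In p210 lines 2 members were then higher and 1 lower in KO, with a median of 0.12, beside 117 and 381 of all genes. Without both KO p210 replicates 2 and 3 these counts were 14 and 2 with p210 in KO lines and 0 and 1 between genotypes in p210 lines. Over all genes that fit gave 2111 and 1748 with p210 in KO lines and 30 and 98 between genotypes. WT untransformed replicate 3 and WT p210 replicate 3, which carry the same code and letter, each held the lowest value for 9 members (20.9%), against 16.5% and 10.2% of all genes.

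**Figure D5:**
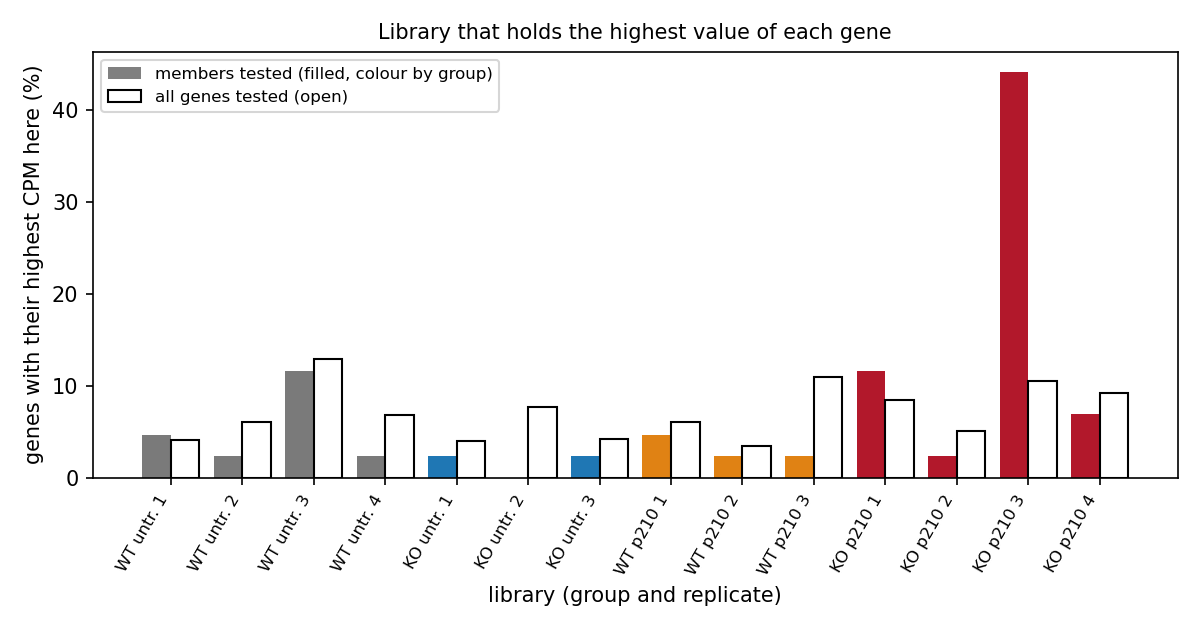
Bars give the percent of the 43 tested members (filled, coloured by group) and of all 14512 genes tested (open) that have their highest CPM in each of the 14 libraries. KO p210 replicate 3 holds 44.2% of the members against 10.5% of all genes, and no other library holds more than 11.6% of the members.

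Other genes of the pathway, listed by function apart from the 44, were read in the same fit. Their counts stand beside the shares of all genes given above, with p210 21.9% higher and 17.6% lower in WT and 19.2% and 18% in KO lines. Of 10 tested further genes known as ATF4 targets, 6 were higher and 1 lower with p210 in WT lines and 5 higher and 0 lower in KO lines (medians 1.27 and 0.95). Sesn2, a leucine sensor that restrains mTORC1, went from between 15.7 and 22.1 CPM to between 48.7 and 55.0 CPM in WT lines (1.54 ± 0.12, adjusted p = 7.21e-06). In KO lines it went from between 24.6 and 27.2 CPM to between 58.7 and 75.4 CPM (1.38 ± 0.12, adjusted p = 2.05e-05). Slc6a9, the glycine carrier GLYT1, went from between 1.89 and 8.10 CPM to between 24.3 and 108 CPM in WT lines (4.12 ± 0.61, adjusted p = 0.00035). In KO lines it went from between 0.549 and 0.773 CPM to between 55.5 and 149.9 CPM (7.19 ± 0.80, adjusted p = 8.34e-05). Gadd45a rose in both genotypes, by 2.03 ± 0.30 in WT and 0.98 ± 0.30 in KO lines (adjusted p = 0.000349 and 0.0252), as did the oxidase gene Ero1l, by 1.60 ± 0.27 in WT and 1.05 ± 0.28 in KO lines (adjusted p = 0.000868 and 0.0126). Of 16 genes of the unfolded protein response of the endoplasmic reticulum, 6 were higher and 2 lower in WT lines and 5 higher and 2 lower in KO lines. Xbp1, the spliced factor of that response, gave 0.98 ± 0.15 in WT and 1.09 ± 0.15 in KO lines (adjusted p = 0.000369 and 0.000294). Sel1l gave 0.41 ± 0.06 in WT and 0.19 ± 0.06 in KO lines (adjusted p = 0.000214 and 0.0211), and Pdia4 gave 1.00 ± 0.14 in WT and 0.45 ± 0.14 in KO lines (adjusted p = 0.000219 and 0.0262). Dnajc3 and Herpud1 fell in both genotypes, with -0.31 ± 0.08 in WT and -0.40 ± 0.08 in KO lines (adjusted p = 0.00937 and 0.00219) for Dnajc3 and -0.52 ± 0.08 in WT and -0.36 ± 0.08 in KO lines (adjusted p = 0.000388 and 0.00407) for Herpud1. Among 14 genes for eIF2 kinases, their cofactors, eIF2 phosphatase subunits and eIF2B, 4 were higher and 3 lower in WT and 4 higher and 0 lower in KO lines. The kinase gene Eif2ak3 (PERK) gave 0.47 ± 0.09 in WT and 0.30 ± 0.09 in KO lines (adjusted p = 0.00193 and 0.0245), and Impact, an inhibitor of the kinase GCN2, gave 0.50 ± 0.15 in WT and 0.76 ± 0.15 in KO lines (adjusted p = 0.0187 and 0.00258). Eif2b2 gave 0.24 ± 0.07 in WT and 0.10 ± 0.07 in KO lines (adjusted p = 0.0189 and 0.274), and Ppp1r15a (GADD34), which lets eIF2 be dephosphorylated, gave 0.23 ± 0.15 in WT and 0.77 ± 0.16 in KO lines (adjusted p = 0.256 and 0.00287).

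Of 14 further folate, glycine and methionine genes tested, 7 were lower and 1 higher with p210 in WT lines and 5 lower and 0 higher in KO lines. Mthfd1 gave -0.58 ± 0.08 in WT and -0.39 ± 0.08 in KO lines (adjusted p = 0.000228 and 0.00267). Aldh1l1 gave -1.51 ± 0.32 in WT and -1.27 ± 0.31 in KO lines (adjusted p = 0.00343 and 0.00755). Of 9 other cytosolic synthetases 0 were higher and 3 lower in WT, and 2 higher and 2 lower in KO lines. Vars gave -0.59 ± 0.09 in WT and -0.34 ± 0.09 in KO lines (adjusted p = 0.000344 and 0.00895) and Dars -0.43 ± 0.11 in WT and -0.33 ± 0.11 in KO lines (adjusted p = 0.00858 and 0.0297). Kars gave -0.32 ± 0.08 in WT and -0.12 ± 0.08 in KO lines (adjusted p = 0.0102 and 0.264) and Hars 0.10 ± 0.07 in WT and 0.22 ± 0.07 in KO lines (adjusted p = 0.272 and 0.026). Of 17 mitochondrial synthetases 1 was higher and 5 lower in WT, and 1 higher and 3 lower in KO lines. Hars2, the 1 gene higher, gave 0.53 ± 0.10 in WT and 0.48 ± 0.10 in KO lines (adjusted p = 0.00169 and 0.00404). Vars2 gave -0.29 ± 0.07 in WT and -0.09 ± 0.07 in KO lines (adjusted p = 0.00857 and 0.365), and Cars2 was lower in both, with -0.38 ± 0.10 in WT and -0.29 ± 0.10 in KO lines (adjusted p = 0.0105 and 0.035). Of 9 other amino acid transporters tested 6 were higher in WT and 4 in KO lines and 0 lower. Slc36a1 gave 1.18 ± 0.15 in WT and 0.55 ± 0.15 in KO lines (adjusted p = 0.000159 and 0.015). Slc38a9 gave 0.71 ± 0.16 in WT and 0.47 ± 0.16 in KO lines (adjusted p = 0.0045 and 0.0376), Slc38a1 0.51 ± 0.12 in WT and 0.20 ± 0.12 in KO lines (adjusted p = 0.00488 and 0.201), and Slc7a8 0.72 ± 0.22 in WT and 1.26 ± 0.23 in KO lines (adjusted p = 0.0214 and 0.00143). Slc7a2 also passed in both, with 7.59 ± 1.79 in WT and 5.99 ± 1.95 in KO lines (adjusted p = 0.006 and 0.0309), on only 15 counts over the WT and 8 over the KO untransformed libraries. Its p210 levels were 9.14, 0.437 and 48.03 CPM in WT and 18.2, 4.02, 0.204 and 0.390 CPM in KO libraries. Of 20 genes of mTORC1 and its amino acid sensing 5 were higher and 4 lower in each genotype, near the shares of all genes. Lamtor3 gave 0.59 ± 0.09 in WT and 0.66 ± 0.09 in KO lines (adjusted p = 0.000496 and 0.00033) and Rragc 0.42 ± 0.08 in WT and 0.42 ± 0.08 in KO lines (adjusted p = 0.00161 and 0.00185). Lamtor2 gave -0.42 ± 0.08 in WT and -0.37 ± 0.08 in KO lines (adjusted p = 0.00154 and 0.00352) and Tsc1 0.31 ± 0.09 in WT and 0.55 ± 0.09 in KO lines (adjusted p = 0.014 and 0.000697).

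Between genotypes in untransformed lines, where 8.73% of all genes were higher and 6.5% lower in KO, 4 of the 10 further ATF4 targets were higher and 1 lower, with Rab32 (1.02 ± 0.20, adjusted p = 0.0112), Sesn2 (0.53 ± 0.12, adjusted p = 0.0146) and Gadd45a (1.04 ± 0.30, adjusted p = 0.0373) higher. Of the 16 unfolded protein response genes 6 were higher and 0 lower, among them Sel1l (0.35 ± 0.06, adjusted p = 0.00604), Ern1 (1.02 ± 0.21, adjusted p = 0.0112) and Edem1 (0.59 ± 0.13, adjusted p = 0.0154). Of the 14 folate, glycine and methionine genes 1 was higher and 3 were lower, among them Mthfd1 (-0.40 ± 0.08, adjusted p = 0.011) and Tyms (-0.56 ± 0.15, adjusted p = 0.029). Ppp1r15a (-0.63 ± 0.16, adjusted p = 0.023) was the only one of the 14 eIF2 genes and Vars (-0.44 ± 0.09, adjusted p = 0.0104) the only one of the 9 other cytosolic synthetases to pass, both lower. Of the mitochondrial synthetases 0 of 17 passed, with 2 at an unadjusted p under 0.05. Slc43a2 (1.73 ± 0.35, adjusted p = 0.0111) and Slc36a1 (0.74 ± 0.15, adjusted p = 0.0118) were higher among the 9 other transporters. Of the 20 mTORC1 genes Lamtor1 (0.36 ± 0.08, adjusted p = 0.0134) and Lamtor4 (0.50 ± 0.12, adjusted p = 0.0188) were higher and Rragb lower (-0.73 ± 0.23, adjusted p = 0.0484). In p210 lines Rragb (-1.06 ± 0.22, adjusted p = 0.0209) was lower in KO.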

How the data were processed

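Per the labels' protocols, the 14 libraries were made with a SENSE mRNA-Seq kit and sequenced single-end at 50 bp. Per the file headers, reads were counted by gene with featureCounts 1.5.1, reverse-stranded, on GENCODE M13 and GRCm38, and the deposited values are raw counts and TPM. The submitters' processing notes also name Trimmomatic and STAR, without versions. The authors' deposited TPM follow from the counts and gene lengths, with a largest difference of 0.049.

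Counts were tested with edgeR 4.0.16 in R 4.3.3: TMM scaling, filterByExpr (minimum count 10, minimum total 15), 1 fit of 14 libraries with group as the only term, and quasi-likelihood tests with Benjamini-Hochberg adjustment over 14512 genes, called at 0.05. CPM use the scaled library sizes, and SE is the size of the log2 fold change over the root of F. Alternatives used DESeq2 1.42.0, limma 3.58.1, other scalings and filters, covariates, blocks and fewer libraries. Totals of 20270348 to 50303271 counts set the precision.

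Members and lists were chosen with earlier results of these data known. Named were all called members, the most abundant member of each class, Atf4, Ddit3, Asns, Phgdh, Psat1, Mthfd2 and Slc7a11 in every comparison, and up to 3 passing genes of each pathway list by smallest adjusted p. Further genes were named after their values were seen. Within a group each library carries its own code and letter, but the labels do not say that these were derived separately. The p-values then rest on a spread among libraries that may or may not be that of separate derivations. Descriptions carry the same code and letter in both states, taken as a shared cell line. Deviations of the same line in both states correlated at 0.123, 0.102 and 0.117 in WT and 0.0766, 0.11 and -0.0541 in KO lines. Pairs of different lines ran from -0.122 to 0.112 in WT and from -0.184 to 0.133 in KO lines, so in KO lines the same-line values lay within that range. The line was used as a block only in the comparisons of states, and its values are given where a call changed. Values of some genes of the further lists are not reported here.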

Additional observations from a re-analysis of the deposited data

Results flagged for a closer look

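In groups of 4 libraries, 7 of 88 member and group pairs had 1 library set apart from the other 3 by more than Dixon's 95% critical value for the gap over the range. Chance gives about 1 in 20 such pairs. Among KO p210 libraries Atf4 was lowest in replicate 4, at 329.21 CPM, Atf5 highest in replicate 3, at 45.164 CPM, and Yars highest in replicate 3, at 107.96 CPM. Slc43a1 was highest in KO p210 replicate 1, at 0.31357 CPM, a level of a few counts. Among WT untransformed libraries Aars was highest in replicate 3, at 253.39 CPM, as was Iars, at 258.97 CPM, and Tars was lowest in replicate 4, at 118.43 CPM. The fall of Slc43a1 with p210 differed between genotypes by the test of the difference itself, at -4.41 on the log2 scale.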

How the results depend on the processing

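The counts of called members moved by more than 1.5 times as follows. Between genotypes in untransformed lines the count of 5 became 9 with upper quartile scaling, 8 with library size scaling, 0 with no filter on low counts, 8 with a filter of 1 CPM in 3 libraries, 14 with DESeq2, 9 with limma-voom, 17 when only the compared groups were fitted, 3 with code as covariate, 0 with the number of runs as covariate, 2 with the first code alone, 0 with the second, 0 without KO p210 replicate 2 and WT untransformed replicate 3, and 9 without KO p210 replicates 2 and 3, a setting chosen after seeing the data. Leaving out 1 library gave 0 to 10. In p210 lines the count of 6 became 2 with library size scaling, 2 with no filter, 3 with limma-voom, 0 when only the compared groups were fitted, 0 with the second code alone, 2 without KO p210 replicate 2 and WT untransformed replicate 3 and 1 without KO p210 replicates 2 and 3, and leaving out 1 library gave 1 to 5. With p210 in WT lines the count of 18 became 11 with the number of runs as covariate and 7 with the second code alone, and leaving out 1 library gave 15 to 20. With p210 in KO lines the count of 21 became 3 with the second code alone, and leaving out 1 library gave 14 to 22. For the interaction the count of 1 became 6 with DESeq2 and 0 with limma-voom, with any block or covariate, with either code alone and without both libraries of either pair, and leaving out 1 library gave 0 to 1. Fits of fewer samples gave higher counts in some settings and lower counts in others. The cause was not tested for any setting.

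Replicate numbers did not pair the genotypes: deviations of same-numbered libraries correlated at -0.0706, 0.041 and 0.153 in untransformed and -0.0945, 0.0505 and -0.0483 in p210 lines. With replicate number as a block 0 members were called between genotypes in untransformed lines, 2 in p210 lines, 18 and 20 with p210 in WT and KO lines and 0 for the interaction. Blocked by cell line, 17 and 15 were called with p210. Called log2 fold changes turned sign with the second code alone for Vldlr between genotypes in p210 lines (0.32, adjusted p = 0.644) and for Slc7a5 with p210 in WT lines (-0.17, adjusted p = 0.588). Genes of few counts, such as Stc2, Aldh1l2, Cth and Chac1, are limited by depth.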
